A study of Mus musculus with 10 samples.

Results

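The 33 genes described here make, take up, store and export cholesterol, and were taken by mouse symbol from a table of 27179 genes. They comprise 16 enzymes of sterol synthesis, 4 genes that control the SREBP transcription factors, 7 genes of uptake, lysosomal release and storage, and 6 genes of the LXR receptors and of efflux. All 33 passed the filter on low counts, which left 15681 genes for testing. RNA was sequenced from 5 myeloid populations, which had been sorted out of the mammary glands of female C57BL/6 mice, adult and virgin. Each population has 2 biological replicates, 10 libraries in all. The populations were ductal macrophages, stromal macrophages, and dendritic cells divided by the integrins CD11b and CD103 into CD11b+ cells, CD11b-CD103+ cells (hereafter CD103+) and CD11b-CD103- cells (hereafter CD103-). No group carried a transgene or a treatment by the labels, and whether a replicate came from 1 mouse or from pooled mice is not stated. The comparisons therefore ask how untreated cells of the same organ differ in their sterol genes.

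Cells make cholesterol from acetyl-CoA through mevalonate, squalene and lanosterol, and the enzymes of this route are switched on by the SREBP transcription factors when membrane sterol is low. Scap carries SREBP from the endoplasmic reticulum to the Golgi, where it is cut and freed, and Insig proteins hold the complex back when sterol is plentiful. Macrophages also receive cholesterol from lipoproteins and from cells that they engulf. They free it in lysosomes, store the excess as esters in lipid droplets, and export it through ABC transporters that are induced by the oxysterol receptors LXR.

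Total counts ranged from 5636092 to 23093742 per library. Levels are given as CPM, made from the counts of the tested genes with TMM library sizes, on which 3 counts correspond to 0.119 to 0.683 CPM. The lowest count of any member in a library was 4. The summed CPM of 6 macrophage markers was 6164 to 7337 in ductal macrophages, 1895 to 2592 in stromal macrophages and 1405 to 1492 in CD11b+ dendritic cells, against 233 to 320.3 in CD103+ and 214 to 309 in CD103- dendritic cells. Flt3, a receptor that defines conventional dendritic cells, stood at 16.8 and 18.1 CPM in the CD11b+ cells, 314 and 520.2 CPM in the CD103+ cells and 416 and 342 CPM in the CD103- cells and was thus lowest in the CD11b+ cells among these. The sum of 6 markers of the cDC2 type was 2175 to 2779 CPM in CD11b+ cells, above that of every other population, and that of 6 general dendritic cell markers was 295 to 454 CPM there. In ductal macrophages the general dendritic cell markers summed to 826 to 1147 CPM and 6 markers of the cDC1 type to 942 to 1000 CPM, so that the labelled populations held markers of each other. Mitochondrial genes took 0.631% and 0.891% of counts in ductal macrophages, 24.8% and 23.1% in stromal macrophages and 1.88% to 6.29% in dendritic cells. The adipocyte hormone Adipoq stood at 25.9 and 26.3 CPM in stromal macrophages and at most 2.30 CPM in any other library. Luminal epithelial markers summed to 189 to 326 CPM in ductal macrophages and 718 to 1653 CPM in stromal macrophages, and fibroblast markers to 415 to 1213 CPM and 1170 to 1598 CPM in the same order of populations. In CD11b+, CD103+ and CD103- cells, in this order, the luminal markers summed to 476 to 1082, 629 to 1153 and 338.5 to 801.5 CPM. The fibroblast markers summed to 289 to 520.2, 838 to 910.5 and 356 to 551.8 CPM there. The sum of 6 adipocyte markers was highest in CD11b+ cells, at 1005 to 1349 CPM, against 599.7 to 743 CPM in stromal macrophages. The part of RNA from other cells in the results on any population was not tested. Nor was that of the mitochondrial share in stromal macrophages. A fit without the mitochondrial genes kept all 66 calls of members. It shifted the median log2 fold change of all genes between ductal and stromal macrophages by -0.0176, and it checks only the scaling of the libraries.

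Promoters of 27 of the 33 members were found in the RefSeq table (GRCm38.p6), each a window of 300 bases, 250 before and 50 after the start of transcription. Motifs were searched on both strands. The SREBP site, spelled TCACNCCAC, occurred in 1 of 27 members, Hmgcs1, and in 1.44% of all 27025 genes with a promoter in the table. The LXR direct repeat, AGGTCA repeated 4 bases apart, occurred in 0 of 27 members and in 0.0148% of all genes. Only 4 of the 27025 genes held it, so its absence from 27 members cannot be read as a result. Sites that differ from these spellings or lie outside the window were not searched, for SREBP as for LXR. The NF-Y box, spelled CCAAT, is bound by a factor that is known to act beside SREBP. It occurred in 21 of 27 members (77.8%), in 12 of 13 synthesis enzymes (92.3%) and in 41.1% of all genes. The synthesis enzymes thus shared this short motif, while 2 of 5 genes of the LXR and efflux group (40.0%) held it. The 250 bases before the start are shown for Hmgcs1, the member with an SREBP site, and for 5 genes with large differences between ductal and stromal macrophages: Pltp, Scap, Nr1h3, Soat1 and Abca1. Scap and Nr1h3 have further starts in the table, and the one listed first is shown. Capitals mark matches on either strand, so that an NF-Y box on the other strand reads ATTGG. In Hmgcs1 the SREBP site begins 137 bases before the start, and NF-Y boxes begin 237, 176 and 45 bases before it. The windows, in the order shown, are chr13:119690101-119690350 (plus strand), chr2:164857709-164857958 (minus strand), chr9:110333038-110333287 (plus strand), chr2:91195036-91195285 (minus strand), chr1:156474329-156474578 (minus strand) and chr4:53159896-53160145 (minus strand).
Hmgcs1: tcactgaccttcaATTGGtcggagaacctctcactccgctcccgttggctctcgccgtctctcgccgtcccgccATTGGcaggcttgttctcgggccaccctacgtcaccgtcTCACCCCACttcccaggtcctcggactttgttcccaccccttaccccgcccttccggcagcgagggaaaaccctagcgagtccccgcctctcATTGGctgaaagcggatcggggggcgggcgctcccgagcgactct
Pltp: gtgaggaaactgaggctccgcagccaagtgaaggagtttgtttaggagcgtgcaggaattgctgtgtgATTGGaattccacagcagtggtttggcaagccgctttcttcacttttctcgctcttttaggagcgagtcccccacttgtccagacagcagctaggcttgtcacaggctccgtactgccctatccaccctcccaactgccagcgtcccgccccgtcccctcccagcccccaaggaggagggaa
Scap: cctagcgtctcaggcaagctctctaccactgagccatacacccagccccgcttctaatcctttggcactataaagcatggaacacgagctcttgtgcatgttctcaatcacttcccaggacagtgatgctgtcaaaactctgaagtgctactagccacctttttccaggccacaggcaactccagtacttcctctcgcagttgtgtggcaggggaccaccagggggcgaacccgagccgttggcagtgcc
Nr1h3: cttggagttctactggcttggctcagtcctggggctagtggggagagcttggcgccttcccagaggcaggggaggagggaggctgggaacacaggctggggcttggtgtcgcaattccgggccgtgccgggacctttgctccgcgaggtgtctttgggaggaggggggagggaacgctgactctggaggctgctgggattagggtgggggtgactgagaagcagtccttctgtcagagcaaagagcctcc
Soat1: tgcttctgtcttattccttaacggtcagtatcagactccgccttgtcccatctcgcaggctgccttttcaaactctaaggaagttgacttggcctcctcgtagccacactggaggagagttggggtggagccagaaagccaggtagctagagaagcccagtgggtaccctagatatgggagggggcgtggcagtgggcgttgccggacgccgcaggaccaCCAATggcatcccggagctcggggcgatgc
Abca1: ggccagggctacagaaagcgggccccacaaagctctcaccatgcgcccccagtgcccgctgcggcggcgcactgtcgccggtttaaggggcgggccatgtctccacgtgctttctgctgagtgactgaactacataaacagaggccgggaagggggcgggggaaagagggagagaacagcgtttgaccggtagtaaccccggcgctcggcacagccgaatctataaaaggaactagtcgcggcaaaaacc

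The 4 groups of genes stood at different levels. Per kilobase of gene length, the mean level was highest for the lipid droplet protein Plin2 among the storage genes (710.3 CPM per kb in ductal macrophages, 579 in stromal macrophages and 859 in CD11b+ cells) and for the secreted transfer protein Pltp (715 in stromal macrophages and 770.2 CPM per kb in CD11b+ cells). Among the synthesis enzymes, Pmvk reached 90.0 CPM per kb in ductal macrophages, and the means of the others ranged up to 20.1 CPM per kb, that of Mvd in CD11b+ cells. The summed CPM of the 7 uptake and storage genes was 3749 and 3018 in ductal macrophages, 2086 and 1657 in stromal macrophages, 2961 and 2836 in CD11b+ cells, 679 and 934 in CD103+ cells and 750.1 and 724 in CD103- cells. The sum over the 16 synthesis enzymes was 439 and 390.2 CPM in ductal macrophages, 217 and 244 CPM in stromal macrophages, and lay between 304 and 408 CPM in the 6 dendritic cell libraries. Plin2 alone made up 1211 and 975 CPM of the uptake and storage sums in stromal macrophages, so that these sums mostly followed Plin2 there. It also made up most of these sums in both CD11b+ libraries, where its levels are given below. The synthesis sums were lowest in the 2 stromal macrophage libraries. Their difference from the ductal sums came in large part from Pmvk, whose levels are given below, and 3 of the 16 enzymes were called higher in ductal than in stromal macrophages.

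**Figure D1:**
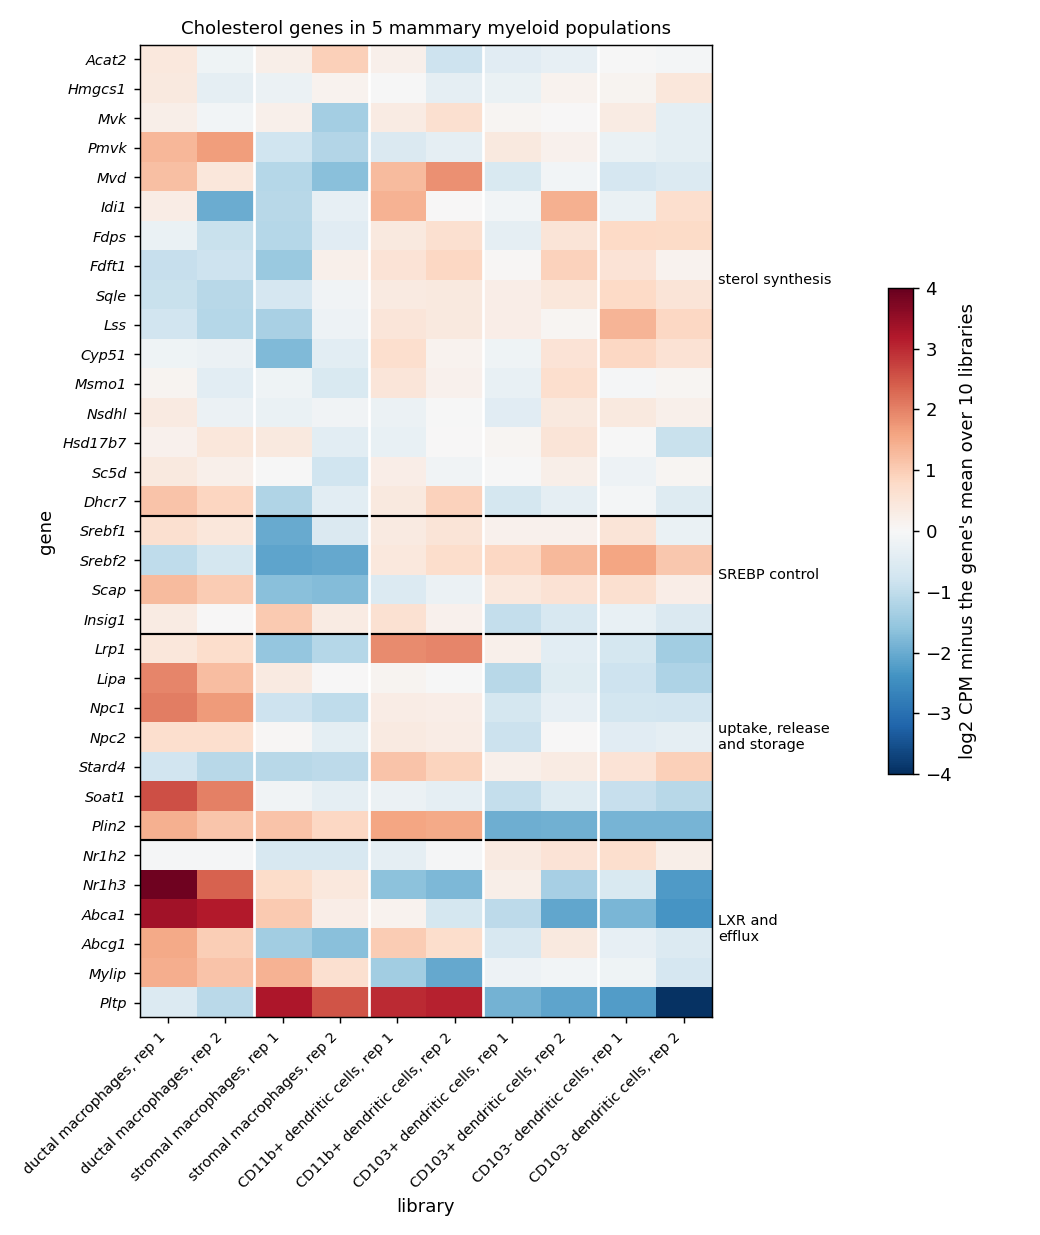
Level of each of the 33 genes in each of the 10 libraries, as log2 CPM minus the gene's mean over the libraries (colour; red above the mean, blue below); rows are genes in 4 role groups and columns are libraries. Abca1, Nr1h3, Soat1, Npc1 and Lipa are highest in the 2 ductal macrophage libraries, while Pltp is high in stromal macrophages and CD11b+ dendritic cells.

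In ductal compared with stromal macrophages, 13 of the 33 genes were higher and 1 was lower, against 16.3% higher and 14.3% lower of all genes tested (edgeR quasi-likelihood test, Benjamini-Hochberg adjusted p under 0.05). Scap, Npc1, Abcg1, Nr1h3, Soat1, Abca1, Pmvk, Mvd, Lrp1, Dhcr7, Srebf1, Lipa and Srebf2 were higher, by 1.23 to 2.85 on the log2 scale, and Pltp was lower, with a log2 fold change of -3.71. The higher genes included 3 of 16 synthesis enzymes, 3 of 4 SREBP genes, 4 of 7 uptake and storage genes and 3 of 6 LXR and efflux genes. The median log2 fold change of the 33 genes was 0.60, and that of all genes tested was -0.10. The libraries of both sides did not overlap in any of these 14 genes. As these genes were already called and the share over all genes was not computed, this adds no further support. In these bulk samples, fewer cells of a type and less RNA per cell cannot be told apart. Over the 10 libraries left out in turn, 10 of the 14 calls were kept. Those of Lipa (adjusted p = 0.0707), Nr1h3 (0.135) and Srebf1 (0.0655) were lost without ductal replicate 1, and that of Srebf2 (0.0546) without ductal replicate 2. Without stromal replicate 2 there were 2 lower genes, Insig1 beside Pltp.

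Set against the mean of the 3 dendritic cell populations, ductal macrophages had 12 higher and 6 lower genes, where 15.0% of all genes tested were higher and 11.6% lower. Of the uptake and storage genes 5 of 7 were higher, and of the LXR and efflux genes 4 of 6, while of the synthesis enzymes 2 of 16 were higher and 4 lower. The 6 lower genes were Fdps, Fdft1, Sqle, Lss, Srebf2 and the sterol carrier Stard4, and their number was 3 (Sqle, Srebf2 and Stard4) when ductal replicate 1, ductal replicate 2, CD11b+ replicate 1, CD11b+ replicate 2 or CD103- replicate 1 was left out. Over all genes, calls in this comparison also fell, to 1230 higher and 755 lower without ductal replicate 1 and to 1068 lower without ductal replicate 2, against 2355 higher and 1822 lower with all libraries. The median log2 fold change of the 33 genes was 0.31 and that of all genes -0.09. Stromal macrophages had 7 higher and 14 lower genes against the dendritic cells, where 20.3% of all genes were higher and 18.2% lower. There, 6 of 16 synthesis enzymes were lower and none was higher, and the median of the 33 genes was -0.60 against 0.03 for all genes. Without stromal replicate 1 the number of higher genes was 4 (Plin2, Abca1, Mylip and Pltp). These comparisons share libraries, so their counts are not independent of each other.

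CD11b+ dendritic cells had 10 higher and 3 lower genes than the mean of the CD11b- populations, against 14.0% higher and 11.0% lower of all genes. Pltp, Plin2, Lrp1, Mvd, Abca1, Abcg1, Dhcr7, Insig1, Lipa and Npc1 were higher, and Mylip, Scap and Nr1h2 were lower. The largest differences were those of Pltp, Plin2, Lrp1 and Mvd, whose calls were the 4 of 13 that were kept whichever library was left out. Leaving out CD11b+ replicate 1 reduced the higher genes to 4, and leaving out either CD11b+ library reduced the lower genes to 1. In these fits the calls over all genes also fell, to 1141 higher and 660 lower without CD11b+ replicate 1 and to 1199 higher and 558 lower without replicate 2, against 2202 and 1727 with all libraries. Between CD103+ and CD103- cells, 0 of the 33 genes were called by edgeR or by DESeq2, where 0.0319% of all genes were higher and 0% lower by edgeR. At an unadjusted p under 0.05, 2 members were higher in CD103+ cells, Pmvk by 0.61 ± 0.23 (SE) and Lrp1 by 0.93 ± 0.30 on the log2 scale, and 0 were lower. The share of all genes at this threshold was not computed.

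**Figure D2:**
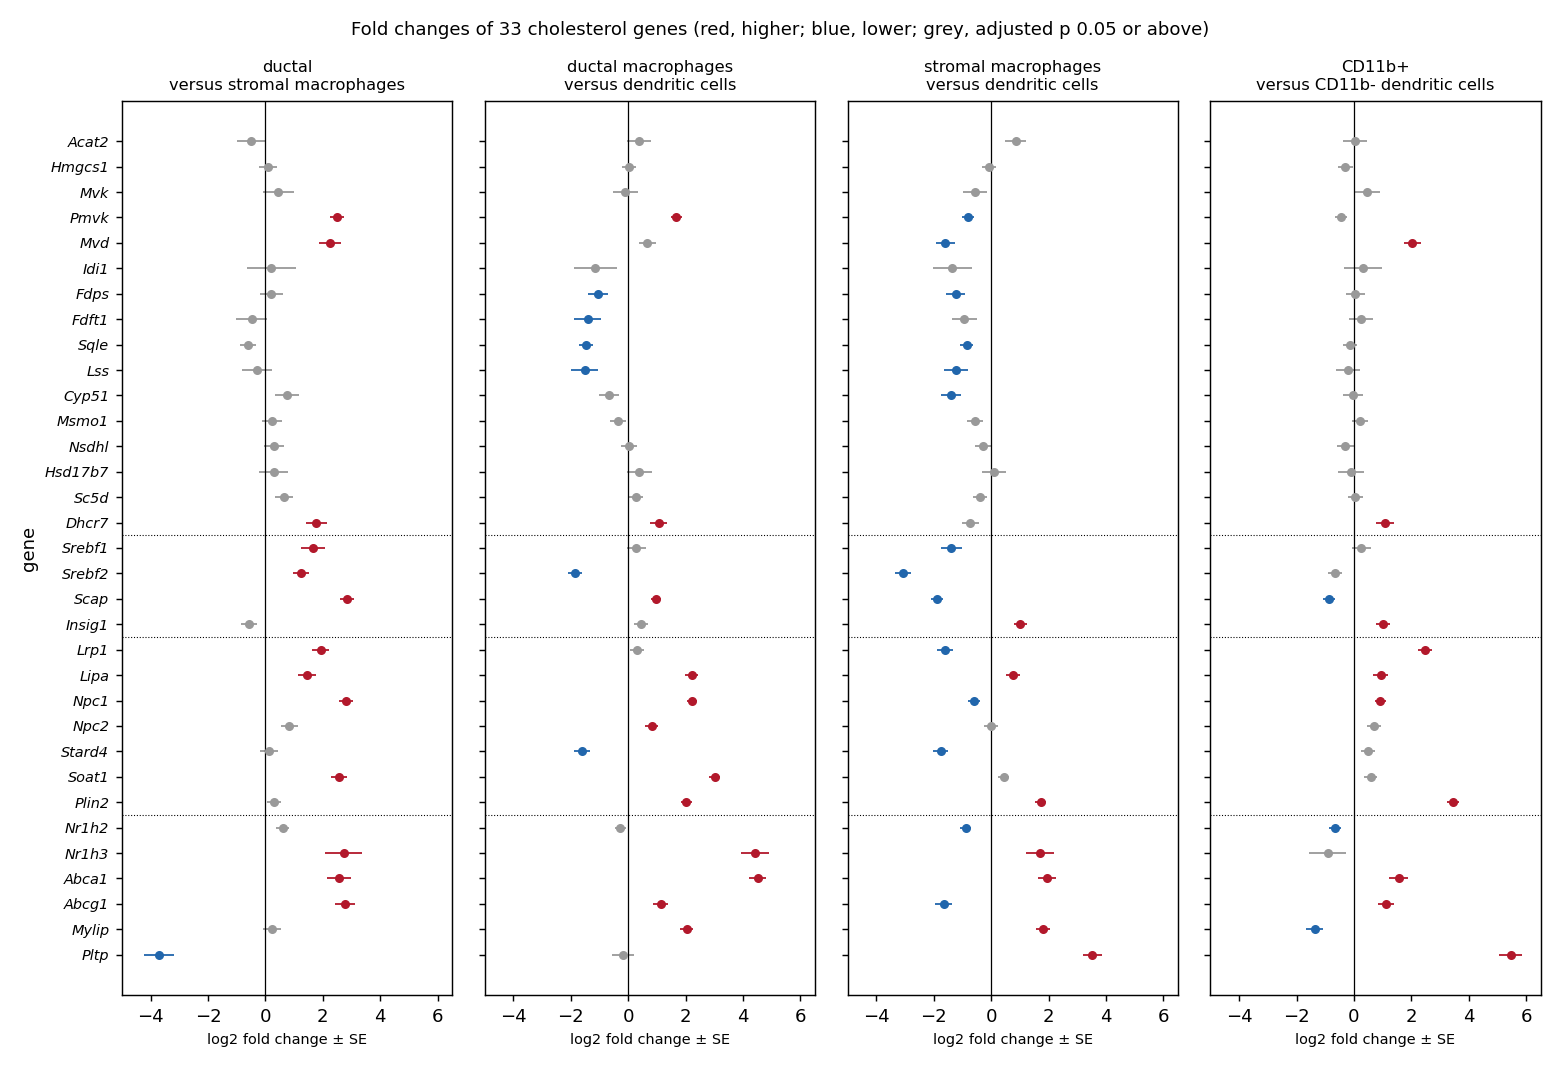
Log2 fold change of each of the 33 genes (points; bars, ± SE) in 4 comparisons, with red for higher, blue for lower and grey for an adjusted p of 0.05 or above; horizontal lines part the 4 role groups. In the ductal macrophage panels 4 of 7 uptake and storage genes are higher against stromal macrophages and 5 of 7 against dendritic cells, Pltp lies far to the left against stromal macrophages, and most synthesis enzymes lie near 0 or to the left against dendritic cells.

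A gene was tested for standing above or below every other population by the largest of its 4 pairwise p-values. Ductal macrophages stood above all others in 6 members, against 2.53% of all genes, and below all others in 0 members, against 1.18%. The 6 genes were Soat1, Nr1h3, Abca1, Npc1, Lipa and Pmvk, with distances of 2.58, 2.73, 2.56, 1.60, 1.44 and 1.23 log2 units to the nearest population. Without ductal replicate 1, Soat1 alone passed, and Npc1, Abca1 and Pmvk had adjusted p = 0.0506, 0.0535 and 0.0552. The call of Pmvk was also lost without ductal replicate 2 or either CD103+ library (adjusted p up to 0.13), and that of Lipa without stromal replicate 2 or either CD11b+ library, with 0.345 as its highest adjusted p. Nr1h3 failed in 6 of the 10 fits with a library left out, the exceptions being those without ductal replicate 2, CD103+ replicate 1 or either CD103- library, and its adjusted p in them ranged from 0.094 to 0.615. Stromal macrophages stood below all others in 2 members, Scap and Srebf2, against 2.72% of all genes, with differences of -1.31 and -1.23 log2 units from the nearest population. The call of Scap was lost without CD11b+ replicate 2 (adjusted p = 0.0732), and that of Srebf2 without any of the 6 libraries of ductal macrophages, stromal macrophages and CD11b+ cells (adjusted p = 0.0601 to 0.191). Stromal macrophages stood above all others in 0 members, against 1.99% of all genes. For ductal macrophages below and stromal macrophages above all others, DESeq2 and an unadjusted p under 0.05 also gave 0 members. CD11b+ cells stood above all others in 0 members by edgeR, against 0.561% of all genes, and below all others in 0, against 0.230%. At an unadjusted p under 0.05, and with DESeq2, these were 1 above (Lrp1) and 1 below (Mylip). The share over all genes was not computed for either setting.

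Among the enzymes of sterol synthesis, 8 of 16 were called in at least 1 of the 5 comparisons, where 60.8% of all genes tested were. Of all 33 members, 25 were called in at least 1 comparison. Whether the share of the enzymes differs from that of all genes was not tested. Pmvk, which phosphorylates phosphomevalonate (gene ID 68603, chromosome 3, 89454541 to 89469014, GRCm38, as for the positions below), stood at 120.0 and 151 CPM in ductal macrophages and 27.4 and 21.1 CPM in stromal macrophages. Its levels in dendritic cells were 31.8 and 37.3 CPM in CD11b+ cells, 62.2 and 53.7 CPM in CD103+ cells and 39.4 and 36.4 CPM in CD103- cells. Both ductal libraries lay above the other 8, with a log2 fold change of 2.48 ± 0.25 (SE; adjusted p = 3.78e-05) against stromal macrophages and 1.68 ± 0.18 (SE; adjusted p = 4.15e-05) against dendritic cells. Stromal macrophages were lower than dendritic cells in Pmvk, at -0.80 ± 0.20 (SE; adjusted p = 0.00919), a call lost without stromal replicate 2 (adjusted p = 0.0884).

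Mvd, which decarboxylates mevalonate diphosphate to the isoprene unit, stood at 29.4 and 17.2 CPM in ductal macrophages and 5.69 and 3.98 CPM in stromal macrophages. In dendritic cells it stood at 30.5 and 44.5 CPM in CD11b+ cells, 8.38 and 11.6 CPM in CD103+ cells and 8.01 and 8.68 CPM in CD103- cells. Ductal macrophages and CD11b+ cells were thus high, and stromal macrophages and CD11b- cells low, without overlap between these sets. It differed by 2.26 ± 0.38 (SE; adjusted p = 0.00124) between ductal and stromal macrophages and 2.03 ± 0.30 (SE; adjusted p = 0.000663) between CD11b+ and CD11b- cells, and stromal macrophages were lower than dendritic cells at -1.59 ± 0.32 (SE; adjusted p = 0.003). Dhcr7, the reductase of the last step to cholesterol, was likewise high in ductal macrophages and CD11b+ cells, at 27.8 and 22.5 CPM in ductal macrophages and 5.41 and 9.24 CPM in stromal macrophages. It stood at 16.4 and 23.5 CPM in CD11b+ cells, 7.70 and 9.70 CPM in CD103+ cells and 11.7 and 8.68 CPM in CD103- cells. Ductal macrophages were higher in Dhcr7 than stromal macrophages by 1.78 ± 0.37 (SE; adjusted p = 0.00458) and higher than the mean of dendritic cells by 1.06 ± 0.28 (SE; adjusted p = 0.0178). Against CD11b+ cells alone the difference was 0.34 (pairwise edgeR test, adjusted p = 0.554), with overlapping ranges, and did not pass. CD11b+ cells were higher than CD11b- cells by 1.08 ± 0.30 (SE; adjusted p = 0.0247). The call of Dhcr7 against dendritic cells was lost without ductal replicate 1 (adjusted p = 0.199) or 2 (0.0598). Its call between CD11b+ and CD11b- cells was lost without CD11b+ replicate 1 (0.058), CD11b+ replicate 2 (0.238), CD103+ replicate 1 (0.078) or CD103- replicate 2 (0.0639).

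Enzymes between farnesyl diphosphate and the lanosterol derivatives, Sqle, Lss, Cyp51, Fdps and Fdft1, were lower in at least 1 macrophage population than in dendritic cells. Sqle, the squalene epoxidase and a rate-limiting enzyme of the route, stood at 11.2 and 9.65 CPM in ductal macrophages and 13.0 and 18.8 CPM in stromal macrophages. Its levels of 26.9 and 27.3 CPM in CD11b+ cells, 25.0 and 28.7 CPM in CD103+ cells and 36.2 and 29.5 CPM in CD103- cells all lay above those of the macrophages. On the log2 scale Sqle differed by -1.47 ± 0.25 (SE; adjusted p = 0.00139) for ductal and -0.86 ± 0.23 (SE; adjusted p = 0.014) for stromal macrophages, the second of these lost without stromal replicate 1 (adjusted p = 0.0817). Cyp51, which demethylates lanosterol, stood at 40.5 and 39.3 CPM in ductal macrophages and 13.4 and 34.2 CPM in stromal macrophages, and at 73.3 and 50.3 CPM in CD11b+ cells, 40.9 and 67.8 CPM in CD103+ cells and 81.2 and 68.7 CPM in CD103- cells. Only stromal macrophages passed the test against dendritic cells, at -1.41 ± 0.36 (SE; adjusted p = 0.00979), and ductal macrophages had -0.66 ± 0.35.

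Lss, the cyclase that forms lanosterol, stood at 2.73 and 2.08 CPM in ductal macrophages and 1.88 and 3.98 CPM in stromal macrophages. It stood at 6.46 and 6.10 CPM in CD11b+ cells, 5.56 and 4.83 CPM in CD103+ cells and 11.9 and 8.28 CPM in CD103- cells, above every macrophage library. Its log2 fold change against dendritic cells was -1.52 ± 0.46 (SE; adjusted p = 0.0299) in ductal and -1.24 ± 0.41 (SE; adjusted p = 0.0358) in stromal macrophages. Fdps, which makes farnesyl diphosphate, stood at 10.5 and 6.81 CPM in ductal macrophages and 5.80 and 9.24 CPM in stromal macrophages. Its values were 16.7 and 19.7 CPM in CD11b+ cells, 9.92 and 18.1 CPM in CD103+ cells and 22.2 and 21.8 CPM in CD103- cells, and ductal replicate 1 overlapped CD103+ replicate 1. Fdps differed by -1.04 ± 0.35 (SE; adjusted p = 0.046) in ductal and -1.24 ± 0.33 (SE; adjusted p = 0.0135) in stromal macrophages. Fdft1, the squalene synthase, stood at 5.69 and 6.05 CPM in ductal macrophages and 3.92 and 12.5 CPM in stromal macrophages, and at 15.8 and 19.4 CPM in CD11b+ cells, 11.2 and 20.7 CPM in CD103+ cells and 15.7 and 11.99 CPM in CD103- cells. Stromal replicate 2 lay within the dendritic cell values and replicate 1 below them. The test was passed by ductal macrophages, at -1.42 ± 0.47 (SE; adjusted p = 0.0461), and stromal macrophages had -0.93 ± 0.43.

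Lss, Fdps and Fdft1 had 871, 2211 and 1980 counts over all libraries, and none of their calls was kept in all 10 fits with a library left out. Against dendritic cells, the call in ductal macrophages was lost for Fdft1 in 7 of the 10 fits with a library left out (those without either ductal, CD11b+ or CD103- library, or without CD103+ replicate 2; adjusted p = 0.0564 to 0.251). Fdps lost it without the same 7 libraries (0.069 to 0.299), and Lss without either ductal or CD11b+ library, CD103+ replicate 1 or CD103- replicate 1 (0.055 to 0.182). In stromal macrophages Fdps lost it without stromal replicate 1 (0.0716), and Lss without stromal replicate 1, either CD11b+ library, either CD103+ library or CD103- replicate 1 (0.0544 to 0.169). Exons of Fdft1 share 18.3% of their bases with Ctsb on the opposite strand, which had 351182 counts against 1980 for Fdft1, and exons of Fdps share 26.7% with Gm43738 on the same strand. The strand setting of the counting was not given, so the levels of Fdft1 and Fdps are uncertain. Smaller shares of exon bases overlap a gene on the opposite strand in Scap (13.2%, 5830462I19Rik), Hmgcs1 (12.1%, Gm48342), Idi1 (9.22%, Gm48574), Npc1 (4.52%, Rmc1) and Cyp51 (3.76%, Akap9).

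The other 8 enzymes did not pass the test in any of the 5 comparisons. Over the 10 libraries, Hmgcs1, the synthase that makes HMG-CoA, had a lowest, median and highest level of 39.3, 52.7 and 70.4 CPM. Sc5d, the lathosterol desaturase, had 21.0, 37.3 and 47.8 CPM, Msmo1, a methylsterol oxidase, 19.1, 29.2 and 45.6 CPM, and Nsdhl, the next dehydrogenase, 13.2, 17.1 and 24.0 CPM. The mevalonate kinase Mvk had 2.54, 7.23 and 10.2 CPM, the thiolase Acat2 2.87, 4.92 and 9.87 CPM, the sterol reductase Hsd17b7 2.40, 4.57 and 6.41 CPM, and the isomerase Idi1 0.757, 2.92 and 8.04 CPM. By the ratio of highest to lowest, Idi1 varied most of these 8, also between replicates of 1 population, with 3.64 and 0.757 CPM in ductal macrophages.

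**Figure D3:**
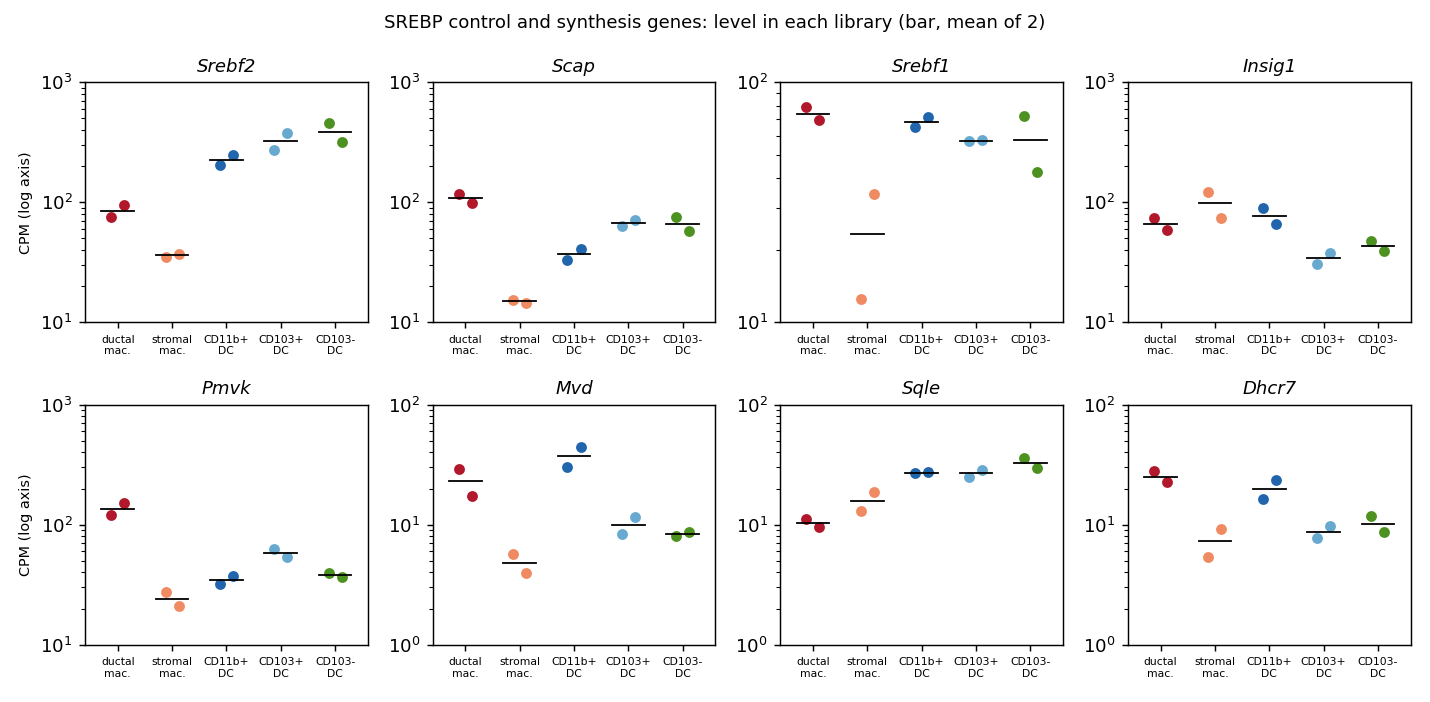
CPM (log axis) of 4 SREBP control genes and 4 synthesis enzymes in the 2 libraries of each population (points; bars, mean of 2). Srebf2 and Scap are lowest in stromal macrophages, Pmvk is highest in ductal macrophages, and Mvd and Dhcr7 are high in ductal macrophages and CD11b+ dendritic cells.

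The genes that control SREBP were low in stromal macrophages, apart from Insig1. Srebf2 encodes the SREBP that mainly drives sterol synthesis (gene ID 20788, chromosome 15, 82147269 to 82205379). It stood at 75.2 and 94.2 CPM in ductal macrophages and 35.3 and 36.9 CPM in stromal macrophages, and at 203 and 246 CPM in CD11b+ cells, 271 and 377 CPM in CD103+ cells and 457 and 319 CPM in CD103- cells, which gave the order stromal, ductal, then dendritic cells without overlap. Ductal macrophages were 1.23 ± 0.28 (SE; adjusted p = 0.00664) above stromal macrophages on the log2 scale, and the difference from dendritic cells was -1.85 ± 0.25 (SE; adjusted p = 0.000236) for ductal and -3.08 ± 0.27 (SE; adjusted p = 9.98e-06) for stromal macrophages. The call between ductal and stromal macrophages was lost without ductal replicate 2 (adjusted p = 0.0546). Between CD11b+ and CD11b- cells the difference was -0.66 ± 0.24 (SE; adjusted p = 0.0676), which did not pass.

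Scap, the sterol-sensing escort of SREBP (gene ID 235623, chromosome 9, 110333288 to 110384949), stood at 117 and 98.4 CPM in ductal macrophages and 15.2 and 14.5 CPM in stromal macrophages. Its levels in dendritic cells, 32.8 and 41.1 CPM in CD11b+ cells, 64.0 and 71.3 CPM in CD103+ cells and 75.2 and 57.6 CPM in CD103- cells, lay between those of the macrophage populations. On the log2 scale Scap differed by 2.85 ± 0.25 (SE; adjusted p = 1.87e-05) between ductal and stromal macrophages. Against dendritic cells it was 0.97 ± 0.18 (SE; adjusted p = 0.00222) in ductal macrophages, a call lost without ductal replicate 1 (adjusted p = 0.0557), and -1.88 ± 0.21 (SE; adjusted p = 6.68e-05) in stromal macrophages. CD11b+ cells were below CD11b- cells at -0.86 ± 0.21 (SE; adjusted p = 0.0123), a call lost without CD11b+ replicate 1 (0.151).

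Srebf1, whose SREBP forms mainly drive fatty acid synthesis and which is itself an LXR target, stood at 78.8 and 69.4 CPM in ductal macrophages and 12.5 and 34.2 CPM in stromal macrophages. It stood at 65.1 and 72.0 CPM in CD11b+ cells, 56.7 and 57.6 CPM in CD103+ cells and 72.6 and 42.4 CPM in CD103- cells. The stromal libraries were the 2 lowest and differed from each other, and the log2 fold change was 1.67 ± 0.41 (SE; adjusted p = 0.0111) for ductal against stromal macrophages and -1.38 ± 0.35 (SE; adjusted p = 0.0107) for stromal macrophages against dendritic cells. Insig1, which retains the Scap complex and is a target of SREBP, ran against the other 3 genes. It stood at 73.8 and 59.0 CPM in ductal macrophages and 123 and 74.2 CPM in stromal macrophages, and at 89.0 and 65.9 CPM in CD11b+ cells, 30.5 and 38.0 CPM in CD103+ cells and 47.8 and 39.2 CPM in CD103- cells. Insig1 was higher in stromal macrophages than in dendritic cells by 1.01 ± 0.22 (SE; adjusted p = 0.00459), although the ranges overlapped, and higher in CD11b+ than in CD11b- cells by 1.01 ± 0.24 (SE; adjusted p = 0.0118). The call of Srebf1 between ductal and stromal macrophages was lost without ductal replicate 1 (adjusted p = 0.0655). The call of Insig1 in stromal macrophages was lost without stromal replicate 1 (adjusted p = 0.137) and that in CD11b+ cells without CD11b+ replicate 1 (0.167).

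In the uptake and storage group, Lipa, Npc1 and Soat1 were highest in ductal macrophages. Lipa, the acid lipase that hydrolyses cholesterol esters in lysosomes (gene ID 16889, chromosome 19, 34492316 to 34527474), stood at 758 and 466 CPM in ductal macrophages and 255 and 197 CPM in stromal macrophages. It stood at 211 and 194 CPM in CD11b+ cells, 90.5 and 142 CPM in CD103+ cells and 110.0 and 84.3 CPM in CD103- cells. The log2 fold change was 1.44 ± 0.32 (SE; adjusted p = 0.00612) against stromal macrophages, lost without ductal replicate 1 (adjusted p = 0.0707), and 2.22 ± 0.23 (SE; adjusted p = 3.97e-05) against dendritic cells. CD11b+ cells were higher than CD11b- cells by 0.93 ± 0.26 (SE; adjusted p = 0.0243), which was lost without either CD11b+ library, CD103+ replicate 1 or CD103- replicate 2 (adjusted p = 0.0663 to 0.161). Stromal macrophages were higher than dendritic cells by 0.78 ± 0.24 (SE; adjusted p = 0.0273), with overlapping ranges, and this call was lost without stromal replicate 1, either CD11b+ library, CD103+ replicate 1 or CD103- replicate 2 (0.0516 to 0.246).

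Npc1 and Npc2 hand cholesterol out of the lysosome, Npc2 as a soluble carrier and Npc1 as the membrane protein that receives it. Npc1 stood at 151 and 118 CPM in ductal macrophages and 20.5 and 17.8 CPM in stromal macrophages, and at 44.9 and 43.6 CPM in CD11b+ cells, 22.5 and 28.8 CPM in CD103+ cells and 21.8 and 21.4 CPM in CD103- cells. Both ductal libraries exceeded all others, with a log2 fold change of 2.81 ± 0.24 (SE; adjusted p = 1.85e-05) against stromal macrophages and 2.21 ± 0.17 (SE; adjusted p = 4.3e-06) against dendritic cells. CD11b+ cells were above CD11b- cells at 0.91 ± 0.19 (SE; adjusted p = 0.00632), lost without CD11b+ replicate 1 (adjusted p = 0.0646). Stromal macrophages were below dendritic cells at -0.60 ± 0.19 (SE; adjusted p = 0.032), lost without stromal replicate 2 (0.169), CD103+ replicate 2 (0.0656), CD11b+ replicate 1 (0.0659) or CD11b+ replicate 2 (0.0563). Npc2 stood at 751 and 758 CPM in ductal macrophages and 489.6 and 358 CPM in stromal macrophages, and at 602 and 579 CPM in CD11b+ cells, 264 and 477 CPM in CD103+ cells and 347 and 369.6 CPM in CD103- cells. It was higher in ductal macrophages than in dendritic cells by 0.82 ± 0.24 (SE; adjusted p = 0.0246), a call lost without either ductal or either CD11b+ library (0.0534 to 0.155), and its difference of 0.83 ± 0.30 (SE; adjusted p = 0.0584) from stromal macrophages did not pass.

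Soat1 esterifies cholesterol for storage (gene ID 20652, chromosome 1, 156428108 to 156474328). It stood at 475 and 319 CPM in ductal macrophages and 72.3 and 60.8 CPM in stromal macrophages, and at 67.7 and 61.2 CPM in CD11b+ cells, 40.5 and 55.2 CPM in CD103+ cells and 41.6 and 36.2 CPM in CD103- cells. No other library came near the ductal ones, whose mean was 397 ± 110.2 CPM (SD, n = 2) against 66.5 ± 8.07 CPM in stromal macrophages. The log2 fold change was 2.58 ± 0.27 (SE; adjusted p = 6.27e-05) against stromal macrophages and 3.01 ± 0.19 (SE; adjusted p = 1.1e-06) against dendritic cells, and Soat1 was the 1 member that stood above every other population whichever library was left out. Plin2, which coats lipid droplets (gene ID 11520, chromosome 4, 86626910 to 86670217), had another pattern, at 1479.9 and 1201 CPM in ductal macrophages and 1211 and 975 CPM in stromal macrophages. Its levels were 1665 and 1578 CPM in CD11b+ cells, 142 and 146 CPM in CD103+ cells and 154 and 152 CPM in CD103- cells, so that the CD11b- cells alone were low. CD11b+ cells were higher than CD11b- cells by 3.45 ± 0.21 (SE; adjusted p = 1.83e-06), and ductal and stromal macrophages were higher than the mean of dendritic cells by 2.03 ± 0.19 (SE; adjusted p = 1.44e-05) and 1.73 ± 0.19 (SE; adjusted p = 4.7e-05), with overlapping ranges, since both CD11b+ libraries exceeded the macrophages.

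Lrp1, a large endocytic receptor for lipoprotein remnants and many other ligands (gene ID 16971, chromosome 10, 127538157 to 127621148), was highest in CD11b+ cells. It stood at 126 and 149 CPM in ductal macrophages and 31.4 and 41.1 CPM in stromal macrophages, and at 340.5 and 355 CPM in CD11b+ cells, 104 and 68.3 CPM in CD103+ cells and 55.8 and 34.7 CPM in CD103- cells. CD11b+ cells were higher than CD11b- cells by 2.48 ± 0.24 (SE; adjusted p = 4.61e-05). Ductal macrophages were higher than stromal macrophages by 1.92 ± 0.30 (SE; adjusted p = 0.00087), and stromal macrophages lower than dendritic cells at -1.61 ± 0.27 (SE; adjusted p = 0.000819), with overlapping ranges. Stard4, a soluble sterol carrier of the cytosol, stood at 7.97 and 6.24 CPM in ductal macrophages and 6.35 and 6.58 CPM in stromal macrophages. It stood at 29.6 and 25.0 CPM in CD11b+ cells, 15.6 and 16.9 CPM in CD103+ cells and 19.8 and 26.5 CPM in CD103- cells, above every macrophage library, and the log2 fold change was -1.62 ± 0.27 (SE; adjusted p = 0.00116) in ductal and -1.75 ± 0.26 (SE; adjusted p = 0.00043) in stromal macrophages.

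**Figure D4:**
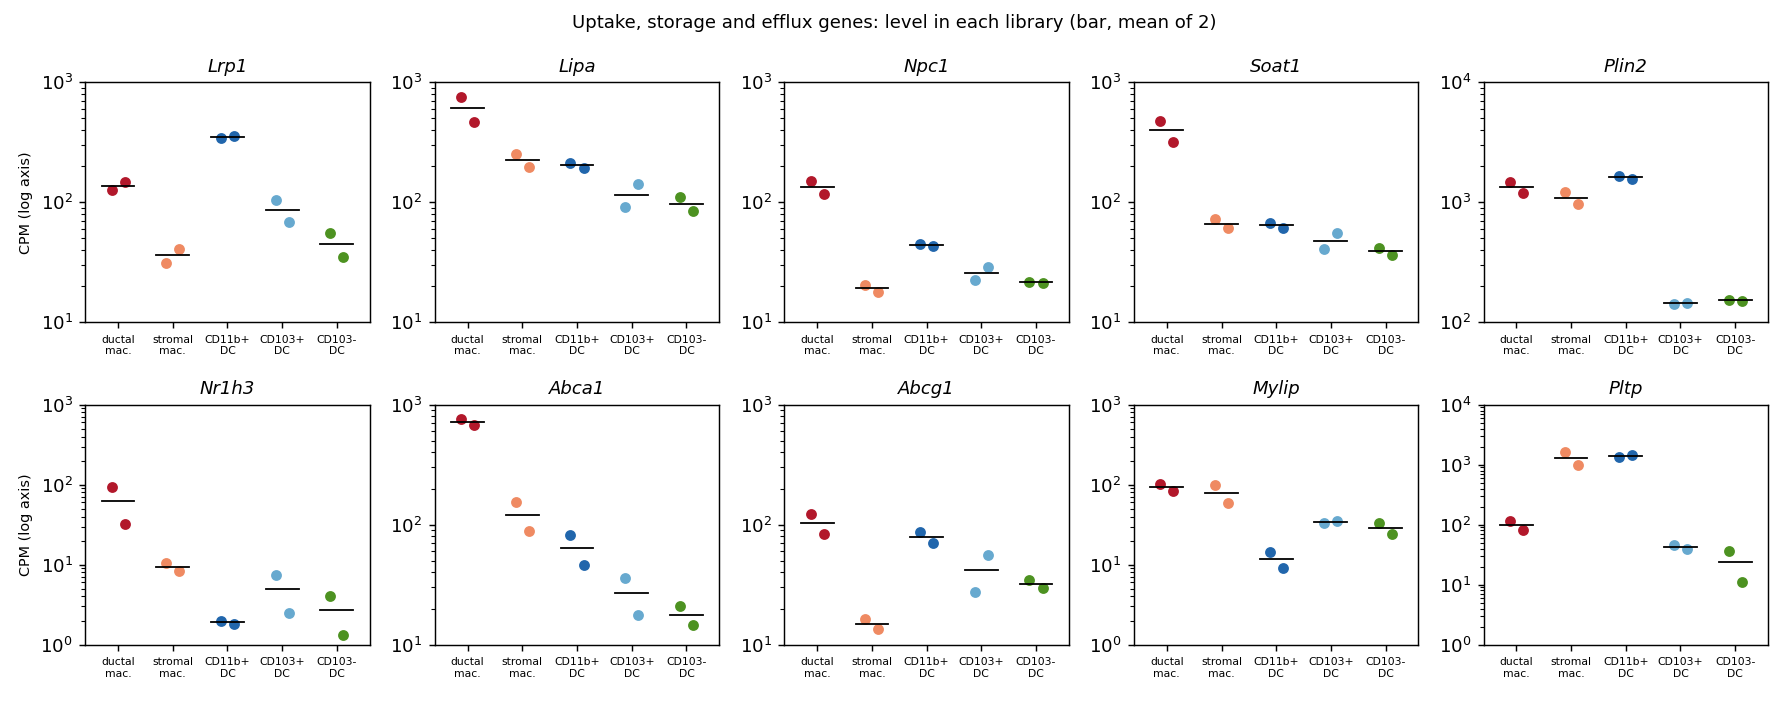
CPM (log axis) of 5 uptake and storage genes (upper row) and 5 LXR and efflux genes (lower row) in the 2 libraries of each population (points; bars, mean of 2). Soat1, Npc1, Abca1 and Nr1h3 are highest in ductal macrophages, Plin2 is low in the CD11b- dendritic cells alone, and Pltp is high in stromal macrophages and CD11b+ dendritic cells.

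In the LXR and efflux group the 2 receptors differed in pattern. Nr1h3, the LXR form of macrophages and liver (gene ID 22259, chromosome 2, 91184061 to 91202829), stood at 93.6 and 32.0 CPM in ductal macrophages and 10.5 and 8.43 CPM in stromal macrophages. It stood at 1.99 and 1.80 CPM in CD11b+ cells, 7.42 and 2.49 CPM in CD103+ cells and 4.07 and 1.31 CPM in CD103- cells. The ductal libraries were the 2 highest but differed from each other by more than those of stromal macrophages, with a mean of 62.8 ± 43.6 CPM (SD, n = 2) in ductal and 9.46 ± 1.46 CPM in stromal macrophages. The log2 fold change was 2.73 ± 0.65 (SE; adjusted p = 0.00951) between these, lost without ductal replicate 1 (adjusted p = 0.135), and 4.42 ± 0.48 (SE; adjusted p = 4.74e-05) for ductal macrophages against dendritic cells. Stromal macrophages were higher than dendritic cells by 1.69 ± 0.49 (SE; adjusted p = 0.0194), lost without stromal replicate 1 (0.105). Nr1h2, the LXR form found in most tissues, stood at 86.8 and 86.6 CPM in ductal macrophages and 57.2 and 57.4 CPM in stromal macrophages. Its values were 69.1 and 86.0 CPM in CD11b+ cells, 115 and 131 CPM in CD103+ cells and 143 and 105 CPM in CD103- cells. It was lower in stromal macrophages than in dendritic cells at -0.88 ± 0.20 (SE; adjusted p = 0.00514), and lower in CD11b+ than in CD11b- cells at -0.67 ± 0.20 (SE; adjusted p = 0.0345). The second call was lost with the replicate number as a block (adjusted p = 0.0524) and without either ductal, CD11b+ or CD103+ library or CD103- replicate 1 (0.0526 to 0.276).

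Abca1 loads cholesterol and phospholipid onto apolipoproteins and is a classical LXR target (gene ID 11303, chromosome 4, 53030789 to 53159988). It stood at 756 and 675 CPM in ductal macrophages and 154 and 88.4 CPM in stromal macrophages, and at 82.0 and 46.1 CPM in CD11b+ cells, 36.1 and 17.7 CPM in CD103+ cells and 21.1 and 14.5 CPM in CD103- cells. Ductal macrophages came first, then stromal macrophages, then all dendritic cell libraries, without overlap, and its mean was 715 ± 57.1 CPM (SD, n = 2) in ductal and 121 ± 46.5 CPM in stromal macrophages. The log2 fold change was 2.56 ± 0.42 (SE; adjusted p = 0.0011) between these and 4.51 ± 0.30 (SE; adjusted p = 1.44e-06) for ductal macrophages against dendritic cells. Stromal macrophages were higher than the mean of dendritic cells by 1.95 ± 0.30 (SE; adjusted p = 0.000541). CD11b+ cells were higher than CD11b- cells by 1.56 ± 0.34 (SE; adjusted p = 0.00694), a call lost without CD11b+ replicate 1 (log2 fold change 1.07).

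Abcg1, which exports cholesterol to high-density lipoprotein and is also an LXR target, stood at 122 and 84.4 CPM in ductal macrophages and 16.5 and 13.5 CPM in stromal macrophages. It stood at 86.6 and 70.4 CPM in CD11b+ cells, 27.4 and 56.1 CPM in CD103+ cells and 34.6 and 29.5 CPM in CD103- cells, so that stromal macrophages were the lowest population. Ductal macrophages were higher than stromal macrophages by 2.78 ± 0.36 (SE; adjusted p = 0.00021). They were higher than the mean of dendritic cells by 1.13 ± 0.26 (SE; adjusted p = 0.00778), a call lost without ductal replicate 1 (log2 fold change 0.835). Against CD11b+ cells alone the difference was 0.39 (pairwise edgeR test, adjusted p = 0.444), with overlapping ranges, and did not pass. Stromal macrophages were lower than dendritic cells at -1.66 ± 0.30 (SE; adjusted p = 0.00158). CD11b+ cells were higher than CD11b- cells by 1.10 ± 0.28 (SE; adjusted p = 0.015), lost without CD11b+ replicate 1 (0.151) or 2 (0.0554). Abca1 and Abcg1 thus differed in where stromal macrophages stood, above the mean of the dendritic cells for Abca1 and below it for Abcg1. Against CD11b+ cells alone, the difference of stromal macrophages in Abca1 was 0.91 (pairwise edgeR test, adjusted p = 0.122) and did not pass.

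Mylip, the ubiquitin ligase that marks lipoprotein receptors for degradation, was shared by both macrophage populations. It stood at 102.96 and 82.7 CPM in ductal macrophages and 99.6 and 59.2 CPM in stromal macrophages, and at 14.4 and 9.16 CPM in CD11b+ cells, 32.9 and 34.8 CPM in CD103+ cells and 33.3 and 23.9 CPM in CD103- cells. Ductal and stromal macrophages were higher than dendritic cells by 2.03 ± 0.24 (SE; adjusted p = 8.67e-05) and 1.81 ± 0.24 (SE; adjusted p = 0.000171), and the difference between them was 0.22 ± 0.31 (SE; adjusted p = 0.621). CD11b+ cells were the lowest, with a log2 fold change of -1.37 ± 0.30 (SE; adjusted p = 0.00667) against CD11b- cells that was lost without CD11b+ replicate 2 (adjusted p = 0.0901).

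Pltp, the secreted protein that moves phospholipid between lipoproteins (gene ID 18830, chromosome 2, 164839518 to 164857708), was the 1 member lower in ductal than in stromal macrophages. It stood at 116 and 81.3 CPM in ductal macrophages and 1608 and 976 CPM in stromal macrophages, and at 1340.4 and 1442 CPM in CD11b+ cells, 45.5 and 39.3 CPM in CD103+ cells and 36.5 and 11.0 CPM in CD103- cells. Stromal macrophages and CD11b+ cells stood above all libraries of the other 3 populations. The log2 fold change was -3.71 ± 0.51 (SE; adjusted p = 0.000357) for ductal against stromal macrophages, 3.53 ± 0.34 (SE; adjusted p = 2.07e-05) for stromal macrophages against dendritic cells and 5.46 ± 0.41 (SE; adjusted p = 7.65e-06) for CD11b+ against CD11b- cells. The exons of Pltp share 19.3% of their bases with Ctsa, a lysosomal protease, on the opposite strand. Ctsa stood at 1938 and 1312 CPM in ductal macrophages, 453 and 357 CPM in stromal macrophages, 399 and 349.7 CPM in CD11b+ cells and 59.5 to 81.1 CPM in the CD11b- cells. Its order between ductal and stromal macrophages was the reverse of that of Pltp. The summed CPM of 6 adipocyte markers was 306 to 512 in ductal macrophages, 599.7 to 743 in stromal macrophages, 1005 to 1349 in CD11b+ cells, 389 to 573 in CD103+ cells and 233 to 457 in CD103- cells. Adipoq, which defines adipocytes, stood at 25.9 and 26.3 CPM in stromal macrophages and 0.619 and 0.898 CPM in CD11b+ cells. Their part in the levels of Pltp and Plin2 was not tested.

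The wider pathway was read from 59 further genes on 4 lists. Of 12 isoprenoid and sterol enzymes, 2 were higher and 2 lower in ductal than in stromal macrophages; against dendritic cells ductal macrophages had 3 higher and 2 lower, and 1 was higher and 2 lower in stromal macrophages than in dendritic cells. These are 16.7% and 16.7%, 25.0% and 16.7%, and 8.33% and 16.7% of the list, where all genes had 16.3% and 14.3%, 15.0% and 11.6%, and 20.3% and 18.2%. Their median log2 fold change was 0.16 between ductal and stromal macrophages, where that of all genes was -0.10. Por, the reductase that passes electrons to the oxidases of the route, stood at 182 and 159 CPM in ductal macrophages and 40.2 and 47.7 CPM in stromal macrophages and was higher in ductal macrophages than in dendritic cells by 1.73 ± 0.26 (SE; adjusted p = 0.000522). Acat1, the mitochondrial thiolase, was lower in ductal macrophages, at 74.5 and 78.9 CPM in ductal macrophages and 149.9 and 160.3 CPM in stromal macrophages (-1.02 ± 0.20 (SE; adjusted p = 0.00352) on the log2 scale).

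Of 19 further genes of lipoprotein uptake, sterol transport and storage, 7 were higher and 0 lower in ductal than in stromal macrophages. Against dendritic cells ductal macrophages had 9 higher and 1 lower, stromal macrophages had 3 higher and 5 lower, and the median between ductal and stromal macrophages was 0.62. In the same order of comparisons these are 36.8% and 0%, 47.4% and 5.26%, and 15.8% and 26.3% of the list, to be read against the shares of all genes given for the isoprenoid list. Nceh1, the neutral hydrolase that frees cholesterol from stored esters, stood at 579 and 510.1 CPM in ductal macrophages and 19.6 and 11.1 CPM in stromal macrophages, and at 119.9 and 99.99 CPM in CD11b+ cells, 24.0 and 18.5 CPM in CD103+ cells and 20.2 and 19.7 CPM in CD103- cells. It was higher in ductal than in stromal macrophages by 5.15 ± 0.33 (SE; adjusted p = 3.99e-06), which exceeded the difference of any member. Gramd1a, which moves cholesterol from the plasma membrane to the endoplasmic reticulum, stood at 346 and 314 CPM in ductal macrophages and 40.8 and 51.6 CPM in stromal macrophages, a log2 fold change of 2.84 ± 0.32 (SE; adjusted p = 8.75e-05). Msr1, a scavenger receptor for modified lipoproteins, marked both macrophage populations, at 195 and 181 CPM in ductal macrophages and 142 and 93.7 CPM in stromal macrophages. It stood at 3.37 and 3.05 CPM in CD11b+ cells, 0.873 and 1.07 CPM in CD103+ cells and 0.483 and 1.09 CPM in CD103- cells, with a log2 fold change of 7.09 ± 0.24 (SE; adjusted p = 2.72e-08) for ductal and 6.41 ± 0.24 (SE; adjusted p = 4.09e-08) for stromal macrophages against dendritic cells. Stard5, a sterol carrier, was higher in stromal macrophages than in dendritic cells by 2.497 ± 0.23 (SE; adjusted p = 1.57e-05), while Scarb1, the receptor of high-density lipoprotein, was lower there at -1.53 ± 0.29 (SE; adjusted p = 0.00209).

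Of 14 partners and targets of LXR and oxysterol enzymes, 5 were higher and 2 lower in ductal than in stromal macrophages. Against dendritic cells ductal macrophages had 6 higher and 1 lower, and 5 were higher and 3 lower in stromal macrophages than in dendritic cells. The median between ductal and stromal macrophages was 0.72. As shares of the list these are 35.7% and 14.3%, 42.9% and 7.14%, and 35.7% and 21.4%, so that the lower shares against stromal macrophages and of stromal macrophages against dendritic cells lay near those of all genes (14.3% and 18.2%). Apoc2, the cofactor of lipoprotein lipase, stood at 66.5 and 63.9 CPM in ductal macrophages and 10.05 and 7.27 CPM in stromal macrophages and was higher in ductal macrophages by 2.91 ± 0.51 (SE; adjusted p = 0.0017). Lpcat3, which remodels phospholipids under LXR, stood at 122 and 85.9 CPM in ductal macrophages and 23.6 and 23.4 CPM in stromal macrophages and at 40.1 and 42.0 CPM in CD11b+ cells, 30.3 and 24.8 CPM in CD103+ cells and 24.9 and 15.1 CPM in CD103- cells, a log2 fold change of 1.88 ± 0.21 (SE; adjusted p = 7.28e-05) for ductal macrophages against dendritic cells and of 2.14 ± 0.29 (SE; adjusted p = 0.000331) against stromal macrophages. Cd5l, a secreted LXR target of tissue macrophages, ran the other way, at 0.456 and 1.32 CPM in ductal macrophages and 41.0 and 28.8 CPM in stromal macrophages and a log2 fold change of -5.24 ± 0.56 (SE; adjusted p = 9.96e-05). Its value in ductal replicate 1 lay below 3 counts, which are 0.683 CPM in that library, so the size of this difference is uncertain. Among the genes named, targets of LXR thus fell on both sides of the comparison of ductal with stromal macrophages. Abca1, Abcg1, Lpcat3 and Srebf1 were higher in ductal and Pltp and Cd5l higher in stromal macrophages. In this comparison 7 of the 14 listed genes did not pass, and neither did Mylip of the LXR and efflux group (0.22).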

How the data were processed

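RNA of the sorted cells came from RNeasy Plus columns, was made into TruSeq libraries and sequenced on a NextSeq 500, per the labels' protocols. The authors deposited raw counts per gene, made with featureCounts on mm10 per the submitters' processing notes; no source used here gives the aligner, annotation or strand setting. RefSeq symbols matched 25275 of 27179 gene IDs. Each population has 2 libraries, which differed by more than counting noise. Counts were fitted across all 5 populations with edgeR 4.0.16 in R 4.3.3 (TMM, filterByExpr with a minimum count of 10 and a minimum total of 15, quasi-likelihood test, Benjamini-Hochberg adjustment over 15681 genes, calls at an adjusted p under 0.05, 5 residual degrees of freedom, common biological coefficient of variation 0.333). The SE is the absolute log2 fold change divided by the square root of F. The fitting code was tested on simulated data. Alternatives were RLE size factors, DESeq2 1.42.0, no filter, mitochondrial genes left out, only the populations compared, the replicate number as a block, and each library left out; for the 59 genes of the other lists these alternatives were chosen after seeing the data. All 33 members are named. From each other list, up to 3 called genes with the largest change per macrophage comparison at 30 CPM or more on the higher side could be named, and those described were picked from them after their values were seen. Members and lists were chosen with earlier results of these data known. P-values set a difference against the spread between replicates, for which the fit across all 5 populations shares an estimate per gene. A population whose replicates differ more than those of the others is judged on that shared estimate.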

Additional observations from a re-analysis of the deposited data

How the results depend on the processing

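All 66 called differences of members were kept with RLE size factors, DESeq2, no filter on low counts, mitochondrial genes left out, or the fit restricted to the populations compared, and no direction was reversed. Leaving out each library in turn kept 38 of 66, where a lone remaining library is assumed to vary like the other populations. Counts of members over these fits ranged from 10 to 15 higher and 1 to 2 lower for ductal versus stromal macrophages, 8 to 12 and 3 to 7 for ductal macrophages versus dendritic cells, 4 to 7 and 12 to 14 for stromal macrophages versus dendritic cells, and 4 to 11 and 1 to 4 for CD11b+ versus CD11b- cells. Ductal macrophages stood above every other population in 1 to 6 members, and stromal macrophages below every other in 0 to 3. With DESeq2, and likewise with no filter, stromal macrophages stood below every other population in 4 members, and CD11b+ cells above every other in 1 and below every other in 1. For standing above or below every other population, the share over all genes was not computed in any of these alternative fits. These counts therefore have no background to be read against. Over all genes, CD103+ versus CD103- calls were 5 higher and 0 lower, 119 and 30 with DESeq2, and 106 and 44 with no filter. Without ductal replicate 1 the calls over all genes of ductal versus stromal macrophages fell to 1555 higher and 981 lower. The replicate numbers are given by the labels without saying what they share. The differences between replicates correlated between populations from -0.176 to 0.177. The correlations were positive among ductal macrophages, stromal macrophages and CD11b+ cells (0.102 to 0.126) and between CD103+ and CD103- cells (0.177). They were negative in every pair across these sets. Whether libraries of the same number share mice, a sort or a run cannot be told from these values. A fit with the replicate block kept 63 of 66 calls and lost Nr1h2 in CD11b+ cells (adjusted p = 0.0524), Fdps in ductal macrophages (0.0634) and Lss in stromal macrophages (0.0571) against dendritic cells. The lowest count of a member in a library was 4, and the causes of the lost calls were not tested.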

Other observations

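Genes of fatty acid synthesis and SREBP processing, which share regulators with the sterol genes, were read as values from a list of 14. In ductal compared with stromal macrophages 4 were higher and 3 lower, and in ductal macrophages compared with dendritic cells 2 were higher and 4 lower (edgeR, adjusted over all genes tested). Stromal macrophages compared with dendritic cells had 4 higher and 4 lower. As shares of the list these are 28.6% and 21.4%, 14.3% and 28.6%, and 28.6% and 28.6%, where all genes had 16.3% and 14.3%, 15.0% and 11.6%, and 20.3% and 18.2%. Scd1, which desaturates stearate, stood at 12.8 and 12.7 CPM in ductal macrophages and 122 and 167 CPM in stromal macrophages, and at 27.2 and 45.8 CPM in CD11b+ cells, 81.5 and 67.1 CPM in CD103+ cells and 58.8 and 62.4 CPM in CD103- cells. Its log2 fold change between ductal and stromal macrophages was -3.51 ± 0.31 (SE; adjusted p = 2.15e-05). Elovl5, an elongase of polyunsaturated fatty acids, stood at 368 and 350.5 CPM in ductal macrophages and 54.3 and 56.0 CPM in stromal macrophages, with a log2 fold change of 2.70 ± 0.28 (SE; adjusted p = 5.13e-05) between ductal and stromal macrophages. Fasn, the fatty acid synthase, stood at 55.1 and 55.8 CPM in ductal macrophages and 12.4 and 29.6 CPM in stromal macrophages, and at 36.5 and 42.2 CPM in CD11b+ cells, 80.5 and 75.9 CPM in CD103+ cells and 109 and 84.2 CPM in CD103- cells, and stromal macrophages were lower than dendritic cells at -1.67 ± 0.31 (SE; adjusted p = 0.00167). Srebf1 and these 3 genes did not share an order of populations.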
